A study of Mus musculus with 6 samples.

Results

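Striated muscle genes were followed in cultured dermal cells of neonatal C57BL/6 mice: 51 genes that encode parts of the sarcomere, the contractile unit of skeletal and heart muscle, or of the machinery that links an electrical signal at the muscle membrane to calcium release. The members were listed by gene symbol. Each was measured by the probe set that names it alone, the brightest over all arrays where there were several, and all 51 were found among 19938 genes tested. After 2 days of culture, total RNA was hybridised to 6 Affymetrix arrays of 1 colour. The 3 arrays titled DMSO, after the solvent, had medium without the compounds. The 3 arrays titled FR had 20 μM forskolin, an activator of adenylyl cyclase that raises cyclic AMP, together with 20 μM RepSox, an inhibitor of the TGF-β type I receptor kinase. The compounds were given only as a pair. The labels do not state that arrays of 1 group stand for different cultures or animals. The p-values therefore cover the spread among these 6 samples alone, and that spread may be technical. The source is given as neonatal skin, with no sorting step described, and cells of other types can be present.

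A sarcomere slides thick filaments of myosin along thin filaments of actin, with troponin on the thin filament as the calcium switch. Most of its proteins come in isoforms from separate genes: embryonic isoforms in young muscle cells, and fast or slow isoforms in the fibre types of mature muscle. Contraction starts at the triad, where a voltage-sensing calcium channel of the surface membrane faces the calcium release channel of the sarcoplasmic reticulum. Myoblasts switch on these genes when they stop dividing and fuse into myotubes.

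Levels are log2 RMA values, and a change is the mean of the 3 FR arrays less that of the 3 DMSO arrays. A gene is said to have risen or fallen where limma's adjusted p was under 0.05 (Benjamini-Hochberg over all 19938 genes). Over all genes, 27.9% passed, 2671 higher and 2888 lower. With each array centred on its median the split was 1880 higher and 3447 lower. Array medians lay between 5.98 and 6.07. Arrays correlated with r of at least 0.9926 within groups and at most 0.978 between groups (across genes, which are not independent replicates). As a check of the dermal label, 9 fibroblast genes had a mean per array of 10.73 to 10.80 with DMSO and 10.57 to 10.64 with FR, 3 of them higher and 5 lower. Pdgfra, a platelet-derived growth factor receptor gene of fibroblasts, lay at 11.16 and 11.13 and did not pass. The collagen genes Col1a1 and Col1a2 fell by 1.09 and 1.57, while Lum, which encodes the matrix proteoglycan lumican, rose by 2.17, Col3a1 by 0.66 and Dcn by 0.48.

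Of the 51 striated muscle genes, 27 rose and 1 fell with FR. The share that rose was 52.9%, where 13.4% of all genes rose and 14.5% fell. The median change was 0.33 (0.05 over all genes), and the changes ran from -0.40 for Jph2 to 2.16 for Actc1. In 33 genes all 3 FR arrays lay above all 3 DMSO arrays, and in 1 all lay below, against 23.0% and 20.9% of all genes. At least 2-fold rises were found for 4 genes (Actc1, Tnnc2, Myh3 and Mylpf), where 1.63% of all genes rose that far. In these bulk samples more cells of a type and more RNA per cell cannot be told apart. Under each of quantile normalization, centring and cyclic loess, 22 of the 27 kept their call. The 5 that lost it under at least 1 of these were Myom1, Myom2, Pygm, Smyd1 and Unc45b. The plot of values by array shows every gene.

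**Figure D1:**
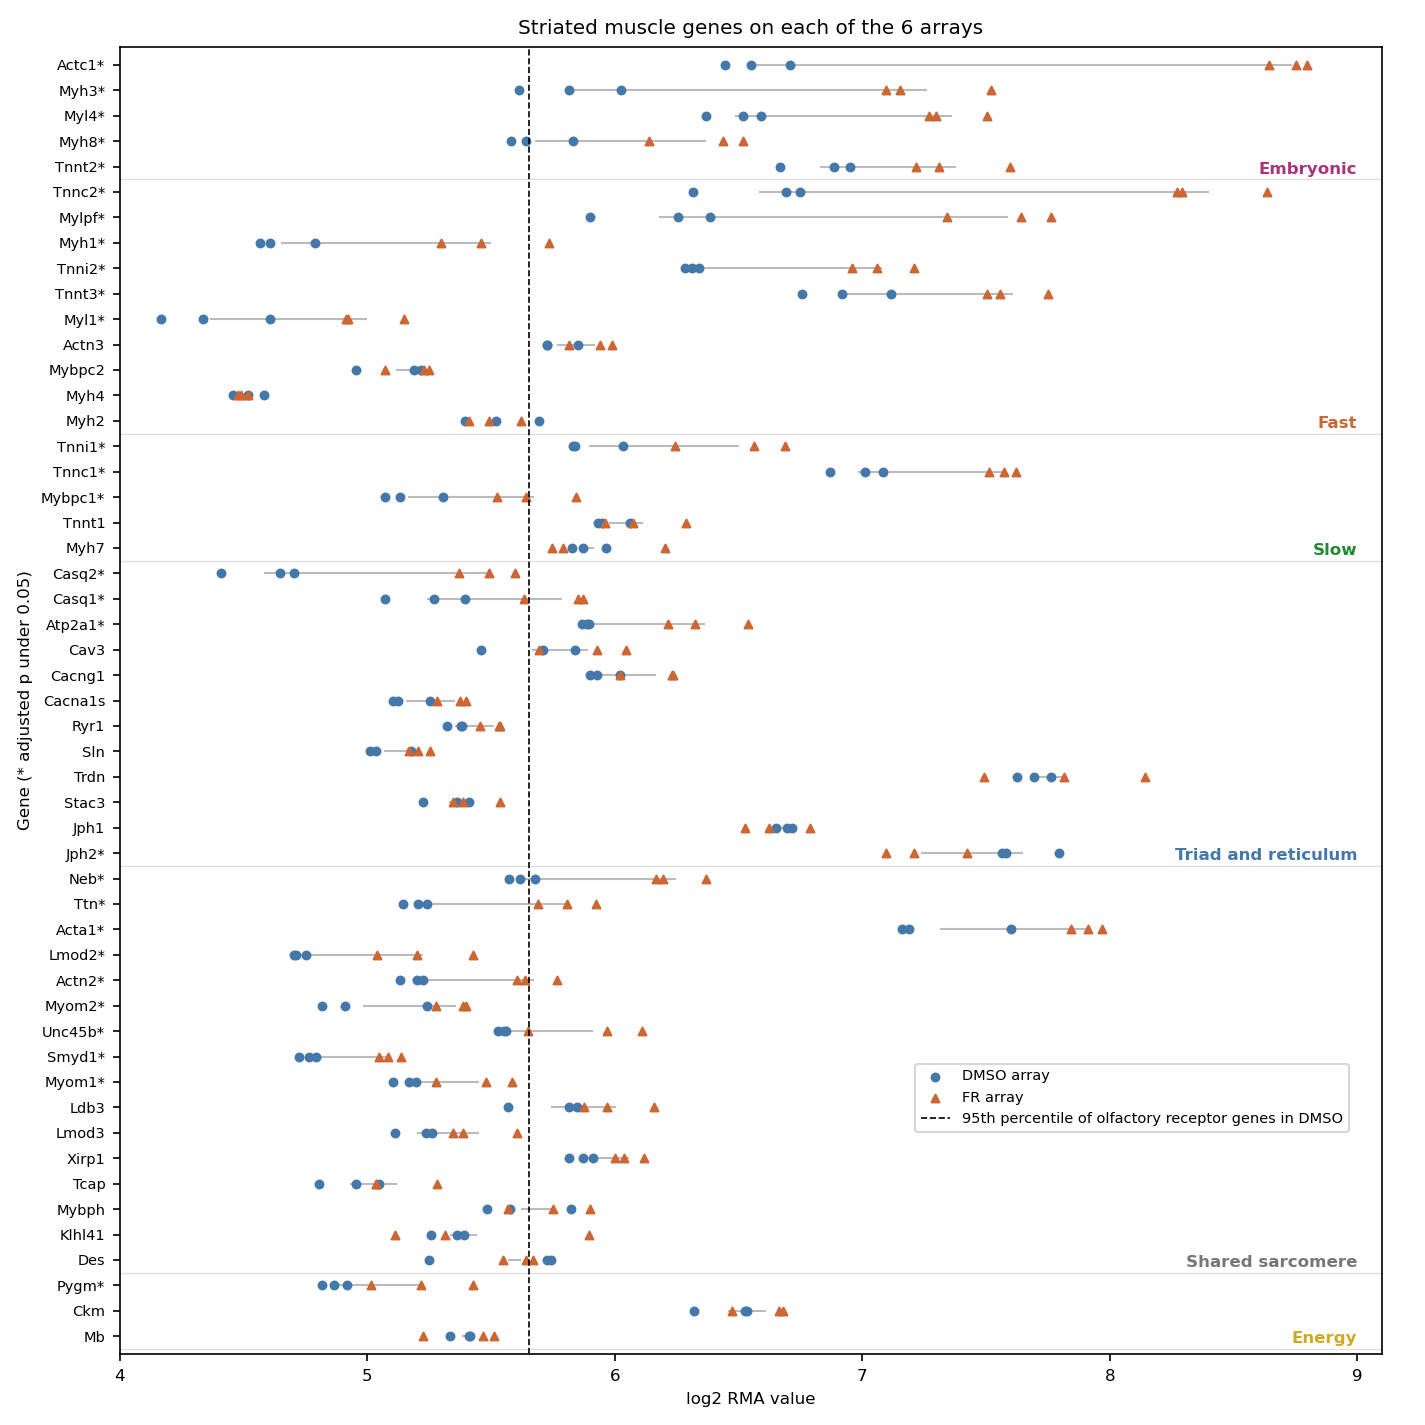
The log2 RMA value of each of the 51 striated muscle genes (rows, by role) on the 3 DMSO arrays (circles) and 3 FR arrays (triangles); grey lines join the group means, the dashed line is the 95th percentile of olfactory receptor genes in DMSO (5.65), and stars mark adjusted p under 0.05. Actc1 and Tnnc2 show the widest gaps between groups, while the circles and triangles of Myh4, Myh2 and Mb overlap.

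Many of these genes were dim. Olfactory receptor genes, taken as a background, had a 95th percentile of 5.65 in DMSO, and 27 of the 51 genes had a DMSO mean under it. In 20 of them the FR mean was under it too, including 8 that rose: Myh1, Myl1, Casq2, Lmod2, Myom2, Smyd1, Myom1 and Pygm. Over all genes, 6932 had both means under it, and 737 of these rose. The same percentile was higher in the FR arrays, 5.92. With each group held to its own level, 26 genes were under it in both groups, and 13 of them rose: those 8 and Casq1, Mybpc1, Actn2, Ttn and Unc45b. How many of all genes under both levels rose was not counted. Fold changes of genes this dim are given as found, and the background range means levels under 5.65 unless said otherwise. The olfactory receptor genes moved as well: their median change was 0.14, and 9.93% of 1027 rose. Among genes whose mean over the 6 arrays was under 5.65, 12 of 24 striated muscle genes rose, where 12.1% of all such genes did. Above that level 15 of 27 rose, where 14.1% of all such genes did. The plot of change against level sets both in view.

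**Figure D2:**
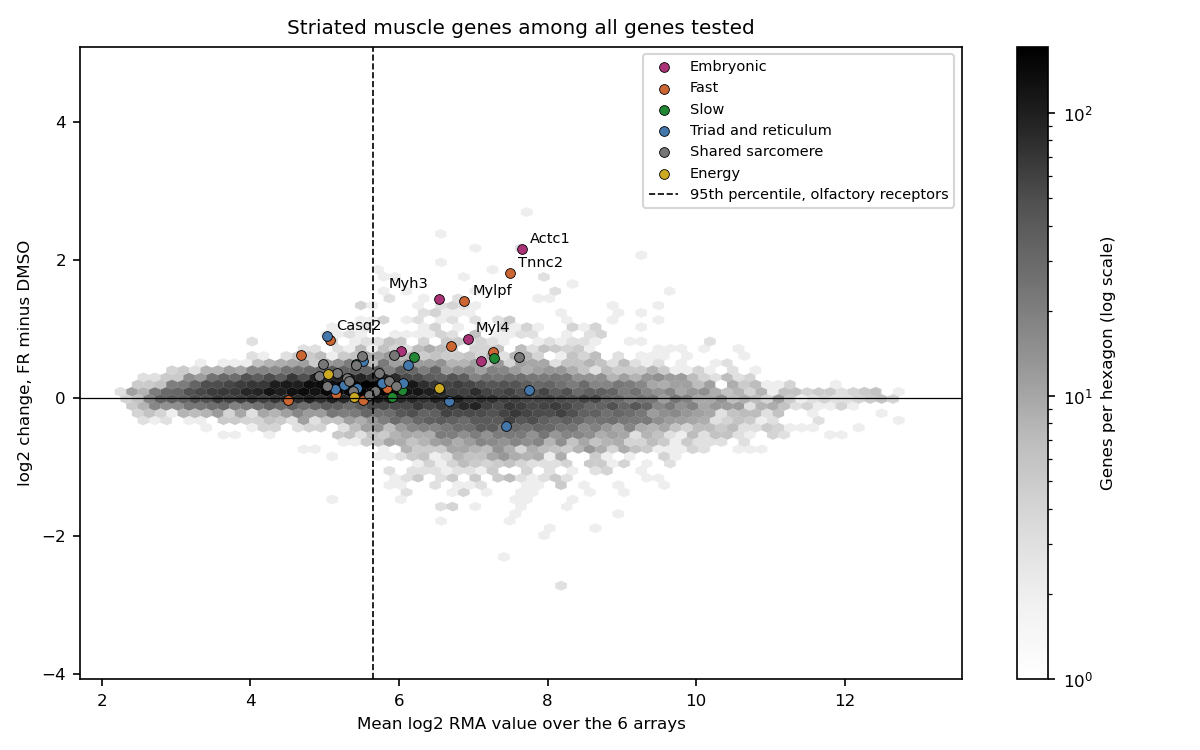
The log2 change (FR minus DMSO) of all 19938 genes (grey hexagons, darker for more genes) against their mean log2 RMA value over the 6 arrays, with the 51 striated muscle genes as coloured points by role; the dashed line marks 5.65. The genes with the widest rises lie to the right of the line, with Actc1 at 2.16 and Tnnc2 at 1.81.

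The embryonic and developmental isoforms rose in 5 of 5 cases, where 13.4% of all genes rose, with a median change of 0.87. Actc1 encodes cardiac α-actin, the actin of the heart and of embryonic skeletal muscle. Its values were 6.55, 6.44 and 6.71 in DMSO and 8.75, 8.80 and 8.64 in FR. The groups were far apart, and the rise was 4.48-fold (log2 change 2.16, SE 0.09, adjusted p = 9.21e-08). It was the 42nd largest rise of all genes. Myh3, the embryonic myosin heavy chain gene, had 5.61, 6.02 and 5.81 in DMSO and 7.52, 7.09 and 7.15 in FR. It rose 2.71-fold (log2 change 1.44, SE 0.13, adjusted p = 1.77e-05), from a level near the background. Myl4, the light chain gene of embryonic and atrial muscle, had 6.37, 6.52 and 6.59 in DMSO and 7.50, 7.27 and 7.30 in FR, a rise of 1.82-fold (adjusted p = 7.33e-05). Myh8, the perinatal myosin heavy chain gene, went from 5.58, 5.83 and 5.64 to 6.52, 6.14 and 6.44 (log2 change 0.68, adjusted p = 0.00119). Tnnt2, the troponin T gene of heart and embryonic muscle, showed the least change of the 5, with a DMSO mean of 6.83 ± 0.15 and an FR mean of 7.37 ± 0.20 (SD, n = 3; log2 change 0.54, adjusted p = 0.00562). None of the 5 had groups that overlapped.

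The skeletal actin gene Acta1, which replaces Actc1 as the main sarcomeric actin of mature skeletal muscle, rose as well. Its values were 7.16, 7.19 and 7.60 in DMSO and 7.84, 7.97 and 7.91 in FR. The groups did not overlap, and the rise was 1.51-fold (log2 change 0.59, SE 0.12, adjusted p = 0.00361). The change of Actc1 was larger than that of Acta1 by 1.57 on the log2 scale (SE 0.10). The exact permutation test of this difference gave p = 0.1 (two-sided), the smallest that 3 against 3 arrays allow, and 0.14 adjusted over the 7 gene pairs compared. Coding sequences of the actins are close to each other, and probe sets of such genes can share signal. The promoter windows of the pair are shown because both genes rose and each carries a CArG box, the motif that serum response factor binds. Among the striated muscle genes with a window, 3 of 23 that rose and 2 of 14 that did not pass held this motif. The sequences are from RefSeq (GRCm38.p6), 250 bases before the start site to 50 after it, on the strand of the gene, 5′ to 3′. Capitals mark the CArG box (CC, then 6 of A or T, then GG) and each E-box CANNTG, the motif of myogenic basic helix-loop-helix factors.
Actc1 (chr2:114052826-114053125, minus strand): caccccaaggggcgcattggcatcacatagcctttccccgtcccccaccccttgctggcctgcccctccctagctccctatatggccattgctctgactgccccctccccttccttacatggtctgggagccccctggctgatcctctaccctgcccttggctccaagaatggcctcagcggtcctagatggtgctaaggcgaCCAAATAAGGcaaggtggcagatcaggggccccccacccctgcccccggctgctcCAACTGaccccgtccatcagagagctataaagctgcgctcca
Acta1 (chr8:123894726-123895025, minus strand): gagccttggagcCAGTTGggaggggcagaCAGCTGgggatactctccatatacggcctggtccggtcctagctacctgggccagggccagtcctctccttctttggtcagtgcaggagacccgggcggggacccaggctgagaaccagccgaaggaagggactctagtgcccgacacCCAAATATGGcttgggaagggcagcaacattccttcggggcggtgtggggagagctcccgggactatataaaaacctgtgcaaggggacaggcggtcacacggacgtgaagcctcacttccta
The CArG box of Actc1, CCAAATAAGG, begins at base -47 from the start site and that of Acta1, CCAAATATGG, at base -73. Acta1 also holds an E-box of the form CAGCTG, which Actc1 lacks in this window. A match in the letters is a description and shows no binding.

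Among the fast fibre isoforms 6 of 10 rose (60%, against 13.4% of all genes), with a median change of 0.65. Tnnc2, the calcium-binding troponin C gene of fast fibres, had 6.32, 6.69 and 6.75 in DMSO and 8.29, 8.63 and 8.27 in FR. It rose 3.51-fold (log2 change 1.81, SE 0.13, adjusted p = 3.41e-06). Mylpf, the fast regulatory light chain gene, had 5.90, 6.26 and 6.38 in DMSO and 7.64, 7.76 and 7.34 in FR, a rise of 2.64-fold (log2 change 1.40, adjusted p = 3.04e-05). Every FR array lay well above every DMSO array for both genes. Tnni2, the inhibitory troponin gene of fast fibres, went from 6.31, 6.29 and 6.34 to 6.96, 7.21 and 7.06 (log2 change 0.76, adjusted p = 9.68e-05). Myh1, the heavy chain gene of fast IIx fibres, went from 4.61, 4.57 and 4.79 to 5.30, 5.46 and 5.73 (log2 change 0.84, adjusted p = 0.000323), with both means in the background range. Tnnt3, the fast troponin T gene, rose by 0.67, and Myl1, an alkali light chain gene of fast fibres, rose by 0.62 within the background range.

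The other 4 fast isoforms did not pass. Myh4, the heavy chain gene of the fastest, IIb fibres, had 4.46, 4.52 and 4.58 in DMSO and 4.48, 4.52 and 4.49 in FR. These values lay inside the background range and overlapped (log2 change -0.02, 95% interval -0.20 to 0.15). Myh2, the heavy chain gene of IIa fibres, had a change of -0.03 (-0.25 to 0.20). Actn3, the α-actinin gene of fast fibres, had 0.15 (-0.05 to 0.34), and Mybpc2, the fast myosin-binding protein C gene, 0.06 (-0.15 to 0.28).

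The 5 members Myh3, Myh2, Myh1, Myh4 and Myh8 are direct neighbours, in that order, on chromosome 11 in RefSeq. Along the cluster the changes were 1.44, -0.03, 0.84, -0.02 and 0.68. Genes that rose and genes that did not pass therefore alternate along it. The change of Myh3 was larger than that of Myh4 by 1.46 (SE 0.18, exact permutation p = 0.1, two-sided). Heavy chain genes are similar in sequence, so single members of the cluster are less certain. The windows of Myh3 and Myh4, drawn in the same way, are shown as those of the pair compared, with Mylpf as a fast gene from another chromosome. Myh2 had the lowest change of the cluster, and its window, not printed, held no E-box and no CArG box.
Myh3 (chr11:67078050-67078349, plus strand): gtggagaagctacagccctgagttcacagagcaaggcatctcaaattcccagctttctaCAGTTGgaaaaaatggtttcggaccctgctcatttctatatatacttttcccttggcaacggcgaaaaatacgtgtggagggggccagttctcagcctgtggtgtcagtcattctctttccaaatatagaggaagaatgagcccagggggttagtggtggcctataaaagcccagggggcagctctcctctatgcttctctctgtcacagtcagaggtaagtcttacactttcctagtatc
Myh4 (chr11:67237562-67237861, plus strand): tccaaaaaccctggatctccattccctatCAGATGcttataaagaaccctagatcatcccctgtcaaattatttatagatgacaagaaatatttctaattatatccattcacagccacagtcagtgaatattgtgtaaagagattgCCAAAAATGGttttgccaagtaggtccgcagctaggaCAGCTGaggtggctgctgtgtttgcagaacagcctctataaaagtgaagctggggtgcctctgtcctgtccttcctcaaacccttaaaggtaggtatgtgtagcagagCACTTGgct
Mylpf (chr7:127211358-127211657, plus strand): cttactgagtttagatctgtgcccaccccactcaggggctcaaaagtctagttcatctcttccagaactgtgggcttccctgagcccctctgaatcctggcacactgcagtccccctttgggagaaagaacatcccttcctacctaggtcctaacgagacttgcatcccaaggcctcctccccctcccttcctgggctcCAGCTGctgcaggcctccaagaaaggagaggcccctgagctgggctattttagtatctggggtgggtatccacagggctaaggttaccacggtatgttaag
Myh4, whose change did not pass, holds a CArG box at base -104 from the start site, a CAGCTG E-box at -67 and other E-boxes at -221 and 41. Myh3, which rose, holds neither of these forms and 1 other E-box at -191. Mylpf, which rose as well, holds a CAGCTG E-box at -51.

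Slow fibre isoforms rose in 3 of 5 cases (60%, against 13.4% of all genes), with a median change of 0.50. Tnni1, the slow troponin I gene, had 6.03, 5.84 and 5.83 in DMSO and 6.24, 6.69 and 6.56 in FR (log2 change 0.60, SE 0.12, adjusted p = 0.00344). Tnnc1, the troponin C gene shared by slow fibres and heart, went from 6.87, 7.01 and 7.08 to 7.57, 7.62 and 7.51 (log2 change 0.58, adjusted p = 0.000591). Mybpc1, the slow myosin-binding protein C gene, went from 5.13, 5.31 and 5.07 to 5.53, 5.84 and 5.64 (log2 change 0.50, adjusted p = 0.00484). In these 3 genes the FR arrays stood above the DMSO arrays without overlap. Myh7, the heavy chain gene of slow fibres and of the ventricle, had 5.97, 5.87 and 5.83 in DMSO and 5.79, 6.20 and 5.75 in FR. Its groups overlapped, with FR replicate 2 above the other arrays (log2 change 0.02, 95% interval -0.24 to 0.29). Tnnt1, the slow troponin T gene, had a change of 0.13 (-0.09 to 0.35). The plot of isoforms sets the families side by side.

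**Figure D3:**
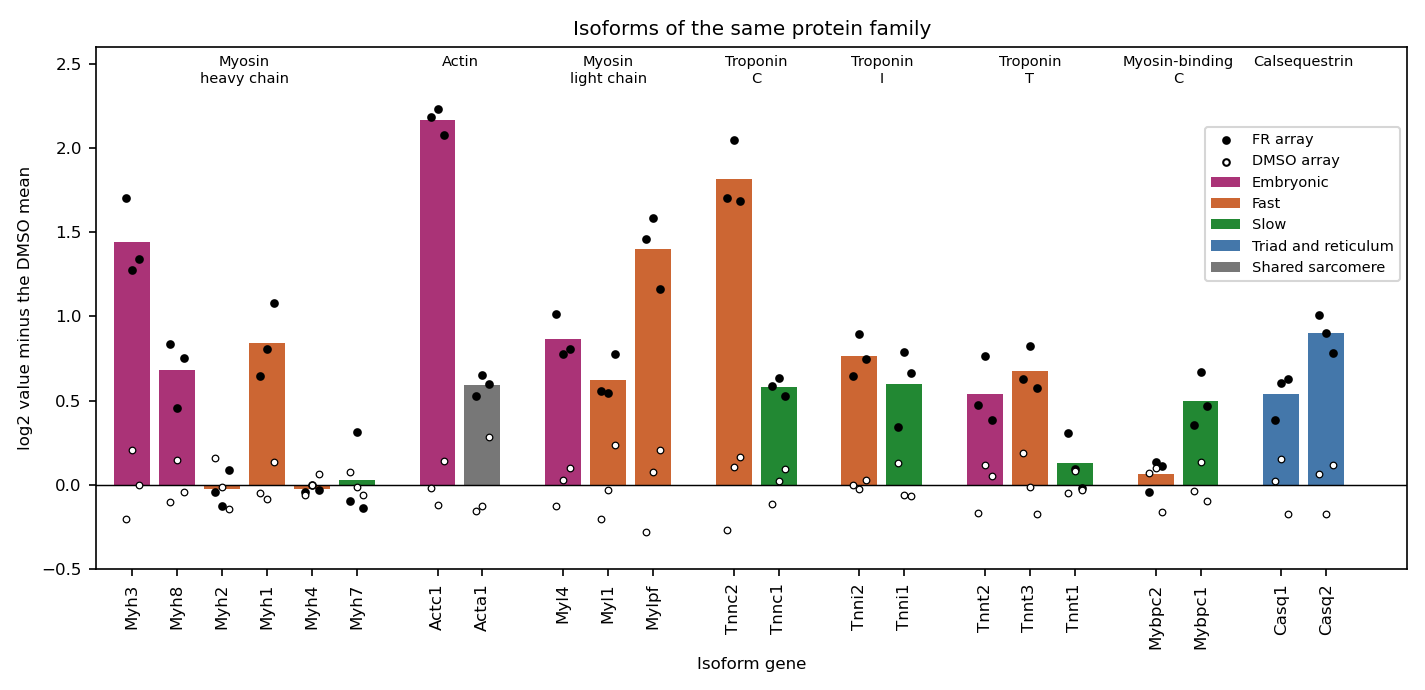
The log2 change (FR mean minus DMSO mean, bars) of isoform genes grouped by protein family, with each array's value minus the DMSO mean of its gene (filled points FR, open points DMSO). Embryonic Actc1 and Myh3 and fast Tnnc2 and Mylpf have the tallest bars, at 2.16, 1.44, 1.81 and 1.40, while Myh2, Myh4 and Myh7 lie at -0.03, -0.02 and 0.02. In the light chain family, Mylpf encodes a regulatory and Myl1 an alkali chain, which are not isoforms of each other.

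Genes of the same family were set against each other in 7 pairs, chosen after their values were seen, and no pair passed after adjustment. The change of Tnnc2 exceeded that of Tnnc1 by 1.23 (SE 0.12) and that of Tnnt3 exceeded that of Tnnt1 by 0.55 (SE 0.17). Mylpf exceeded Myl1 by 0.78 (SE 0.21), though they encode different light chains, regulatory and alkali, and are not isoforms of each other. Each of these differences had an exact permutation p = 0.1 (two-sided), the smallest possible, with the arrays of the groups apart. For Tnni2 against Tnni1 the difference was 0.17 (SE 0.10, exact permutation p = 0.2) with overlapping arrays.

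Of 16 genes for parts that all striated fibres share and for their assembly, 9 rose, with a median change of 0.31. That share was 56.2%, against 13.4% of all genes. Neb encodes nebulin, a giant protein that runs along the thin filament. It went from 5.57, 5.68 and 5.62 in DMSO to 6.20, 6.17 and 6.37 in FR (log2 change 0.62, SE 0.09, adjusted p = 0.000377). Ttn encodes titin, the spring that spans from the Z disc to the M band. It went from 5.14, 5.24 and 5.21 to 5.69, 5.81 and 5.92 (log2 change 0.61, SE 0.09, adjusted p = 0.000454). The groups did not overlap in either gene. The FR mean of Neb, 6.24, lay above the background level of the FR arrays, 5.92, and that of Ttn, 5.81, lay under it. Lmod2, a nucleator of actin filaments, went from 4.75, 4.70 and 4.71 to 5.20, 5.43 and 5.04 within the background range (log2 change 0.50, adjusted p = 0.00459). Actn2, the α-actinin gene of Z discs, rose by 0.48 (adjusted p = 0.00155).

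Myom2 and Myom1, which encode M band proteins, rose by 0.36 (adjusted p = 0.0339) and 0.29 (0.0453), and the myosin chaperone gene Unc45b rose by 0.36 (0.0367). Smyd1, which encodes a methyltransferase needed for myofibril assembly, rose by 0.33 (adjusted p = 0.0109). Leaving out any single array ended the call of Myom1 except FR replicate 3, that of Myom2 except DMSO replicate 3 and that of Unc45b except FR replicate 2. The call of Smyd1 was lost under cyclic loess. The 7 that did not pass were Ldb3 and Tcap, genes of Z disc proteins, Lmod3 and Klhl41, which act on thin filaments, the actin-binding gene Xirp1, the myosin-binding gene Mybph and Des. Their changes ran from 0.05 to 0.26. Des encodes desmin, the intermediate filament of all muscle types, and had 5.74, 5.72 and 5.25 in DMSO against 5.55, 5.64 and 5.67 in FR, with a change of 0.05 (95% interval -0.23 to 0.33).

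Of the 12 triad and sarcoplasmic reticulum genes, 3 rose (25%, against 13.4% of all genes) and 1 fell (8.33%, against 14.5%). Their median change was 0.17. The 3 that rose serve the calcium store. Casq2, which encodes the cardiac and slow calsequestrin that buffers stored calcium, went from 4.65, 4.41 and 4.70 in DMSO to 5.60, 5.49 and 5.37 in FR. That is a rise of 1.86-fold within the background range (log2 change 0.90, SE 0.10, adjusted p = 7.92e-05). Casq1, the fast calsequestrin gene, went from 5.27, 5.40 and 5.07 to 5.63, 5.85 and 5.87 (log2 change 0.54, adjusted p = 0.00348). The change of Casq2 exceeded that of Casq1 by 0.36 (SE 0.23, exact permutation p = 0.2, two-sided), with overlapping arrays. Atp2a1, the calcium pump gene of fast fibres, went from 5.89, 5.89 and 5.87 to 6.22, 6.54 and 6.33 (log2 change 0.48, adjusted p = 0.00391).

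The channels of the triad did not pass. Ryr1, the calcium release channel gene, had 5.38, 5.38 and 5.32 in DMSO and 5.46, 5.53 and 5.54 in FR. Cacna1s, the gene of the voltage-sensing channel, had 5.10, 5.12 and 5.25 against 5.28, 5.37 and 5.40. In both genes the FR arrays lay above the DMSO arrays, all within the background range, by 0.15 (95% interval -0.03 to 0.32, adjusted p = 0.192) and 0.19 (0.00 to 0.38, adjusted p = 0.118). The channel subunit gene Cacng1 had a change of 0.21 (adjusted p = 0.104), which passed without FR replicate 1 (adjusted p = 0.0386). Changes were 0.22 for Cav3, the caveolin gene of muscle membranes, 0.13 for Sln, an inhibitor of the calcium pump, and 0.09 for Stac3, an adaptor of the voltage sensor. None of these passed.

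Jph2 was the member that fell. It encodes a junctophilin, a protein that ties the surface membrane to the reticulum, and is used by heart and skeletal muscle. Its values were 7.57, 7.79 and 7.58 in DMSO and 7.21, 7.10 and 7.42 in FR, a fall by 0.40 on the log2 scale (SE 0.11, adjusted p = 0.0166). This call rested on replicate 2 of each group: leaving out that DMSO array gave an adjusted p = 0.0713, and leaving out that FR array gave 0.0591. The other, dimmer probe set had a change of -0.23 that did not pass. Its partner Jph1 had a change of -0.04 (-0.24 to 0.16). Trdn, the gene of triadin, which anchors calsequestrin to the release channel, was covered by 19 probe sets with DMSO levels from 2.69 to 7.69. The brightest of them had 7.76, 7.70 and 7.62 in DMSO and 7.49, 7.82 and 8.14 in FR and did not pass (log2 change 0.12). Of the 19, 2 rose and 1 fell, with changes from -0.47 to 0.65. Those that rose were the next brightest, from 6.73 to 7.11 and from 5.87 to 6.38, and the one that fell lay in the background range, at 3.18 and 2.83. All 4 Trdn probe sets with a DMSO mean above 5.65 had a positive change.

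**Figure D4:**
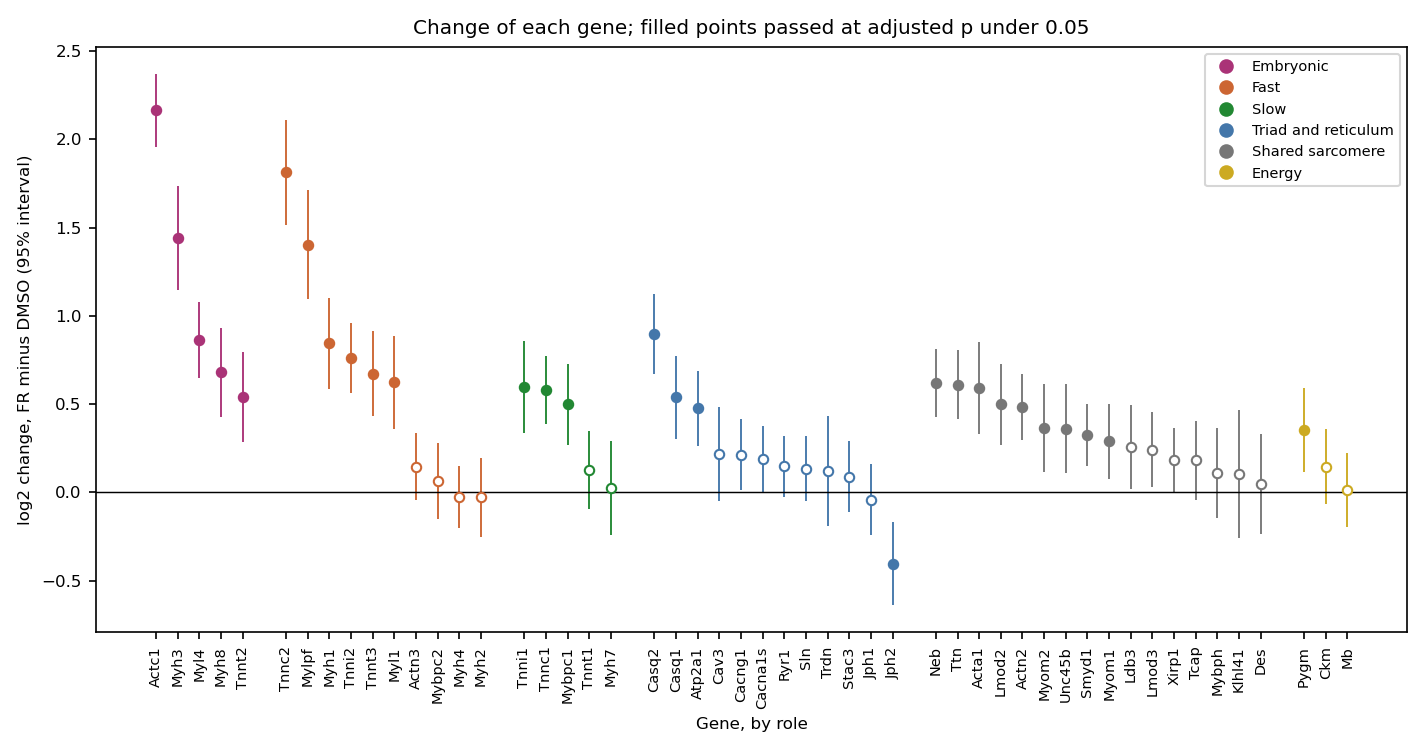
The log2 change (FR minus DMSO) of each of the 51 striated muscle genes by role, with 95% intervals from limma; filled points passed at adjusted p under 0.05. Embryonic isoforms lie from 0.54 to 2.16, and triad and reticulum genes from -0.40 to 0.90 with 8 of 12 points open.

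Of the 3 members that supply energy to fibres, 1 rose (33.3%, against 13.4% of all genes). Ckm, the muscle creatine kinase gene, had 6.53, 6.32 and 6.53 in DMSO and 6.47, 6.66 and 6.68 in FR (log2 change 0.15, 95% interval -0.07 to 0.36). Mb, the myoglobin gene, had 5.41, 5.34 and 5.41 against 5.47, 5.51 and 5.23 (log2 change 0.02, -0.19 to 0.23). The groups overlapped in both genes. Pygm, the muscle glycogen phosphorylase gene, had 4.87, 4.82 and 4.92 against 5.02, 5.43 and 5.22. It rose by 0.35 (adjusted p = 0.0325) within the background range, with the groups apart. That call was lost under each of quantile normalization, centring and cyclic loess, and without any single array other than FR replicate 1.

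Related muscle genes outside the 51 went both ways, and over all genes 13.4% rose and 14.5% fell. Of 51 measured genes listed as other sarcomere and Z disc genes, 7 rose (13.7%) and 14 fell (27.5%). This list is wider than its name, as it also holds ubiquitin ligase and chaperone genes such as Fbxo32 and Cryab. The share that rose was near that of all genes, and the median change was 0.06. Those that rose included Smpx, a small protein gene of striated muscle (1.22), and Myoz2, a Z disc gene (0.67), both within the background range. The chaperone regulator gene Bag3 rose by 0.86, from 9.71 to 10.58. Those that fell included the ubiquitin ligase gene Fbxo32 (-1.93), the chaperone gene Cryab (-1.79) and Nexn, an actin-binding gene (-1.74). The tropomyosin genes Tpm1, Tpm2 and Tpm3, which are used outside striated muscle too, fell by 0.55, 0.50 and 0.56 from levels above 10. A split by mean level over the 6 arrays was made after the values were seen. Of 22 genes under 5.65, 5 passed and those 5 rose, where 12.1% of all such genes rose. Of 29 above it, 2 rose and 14 fell, where 14.1% and 21.8% of all such genes did. Of 36 further excitation-contraction genes, 8 rose (22.2%) and 4 fell (11.1%), with a median of 0.11. Cacna2d1, a calcium channel subunit gene, rose by 0.58, and the acetylcholine receptor subunit genes Chrng and Chrnd rose by 0.43 and 0.44. Another subunit gene, Chrnb1, fell by 0.37, and Chrna1 and Chrne had changes of 0.30 and 0.12 that did not pass. Bin1, which encodes a protein of membrane tubules, fell by 0.57. Of 16 muscle energy genes, 4 rose (25%) and 6 fell (37.5%). Among them Pgam2 and Cox6a2, muscle isoforms of a glycolytic enzyme and of a respiratory chain subunit, rose by 0.52 and 0.51, while the fatty acid binding protein gene Fabp3 fell by 1.60 and the respiratory chain gene Cox7a1 by 0.74.

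Genes that control the programme moved in both directions. Of 20 genes listed as myogenic transcription factors and fusion genes, 6 rose (30%) and 4 fell (20%), with a median change of 0.11. Over all genes 13.4% rose and 14.5% fell. Jsrp1, which did not pass, is on this list and on that of excitation-contraction genes. Mymk, which encodes the membrane protein that fuses myoblasts, rose by 0.82 (6.34 to 7.16), Myf5 by 0.55 within the background range and Myog by 0.54 (5.55 to 6.10). Those that fell were Megf10 (-0.81), Mef2c (-0.71), Vgll3 (-0.36) and Mef2a (-0.36). On a list of 12 satellite cell and myoblast markers that shares some of these genes, 9 rose (75%) and 1 fell (8.33%). Of the 9 that rose, 2 had both means under 5.65, 3 the DMSO mean alone and 4 neither. The mean of the list per array was 5.94 to 6.07 with DMSO and 6.33 to 6.44 with FR. Its largest rises were those of Sdc4 (0.89) and Chrdl2 (0.86), and it includes Pax7, the satellite cell factor (0.33), and Myod1, a myogenic factor (0.49). The part of a change in the number of such cells was not tested.

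Markers of other muscle and skin cells give the setting of these values. Their counts stand beside 13.4% of all genes that rose and 14.5% that fell, and several rest on few genes. Of 14 genes listed for heart muscle 1 passed, Nppa, a natriuretic peptide gene, which fell by 0.32. Myh6, the heavy chain gene of heart muscle, lay at 4.84 and 4.92, in the background range. The mean of the list was 5.68 to 5.72 in DMSO and 5.70 to 5.87 in FR. Of 11 smooth muscle and myofibroblast genes 8 fell, and the median change was -0.68. Their mean was 7.47 to 7.54 in DMSO and 6.71 to 6.76 in FR. Among these, Acta2, the smooth muscle actin gene, went from 11.40 to 9.67 and Myh11 from 6.38 to 5.99, while Tagln and Cnn1, which encode actin-binding proteins, fell by 1.94 and 1.44. Brown fat shares a developmental origin with muscle. Of 10 brown fat genes 3 rose and 1 fell. Ppargc1a, a regulator of mitochondrial genes, rose by 1.36 and Dio2, a thyroid hormone deiodinase gene, by 1.17, while the thermogenic gene Ucp1 lay at 3.73 and 4.08, under the background level, and did not pass. White adipocyte markers rose in 8 of 10 cases, among them Adipoq by 3.05, Fabp4 by 2.44, Cd36 by 2.28 and Pparg, the master regulator of fat cells, by 2.22, with a mean of 6.54 to 6.56 in DMSO and 7.96 to 8.06 in FR. Keratinocyte markers rose in 16 of 20, the keratin genes Krt5 and Krt16 by 2.18 and 2.03 and Perp by 1.82, with a mean of 5.87 to 5.98 and 6.86 to 6.94. Of the remaining lists, 3 of 8 pericyte genes rose and 2 fell, 3 of 10 endothelial genes rose and 1 fell, 4 of 9 melanocyte genes rose and 1 fell, 1 of 6 Schwann cell genes rose, and 2 of 9 immune cell genes rose. The part of these cell types in the values of the striated muscle genes was not tested. The plot of list means shows these levels for each array.

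**Figure D5:**
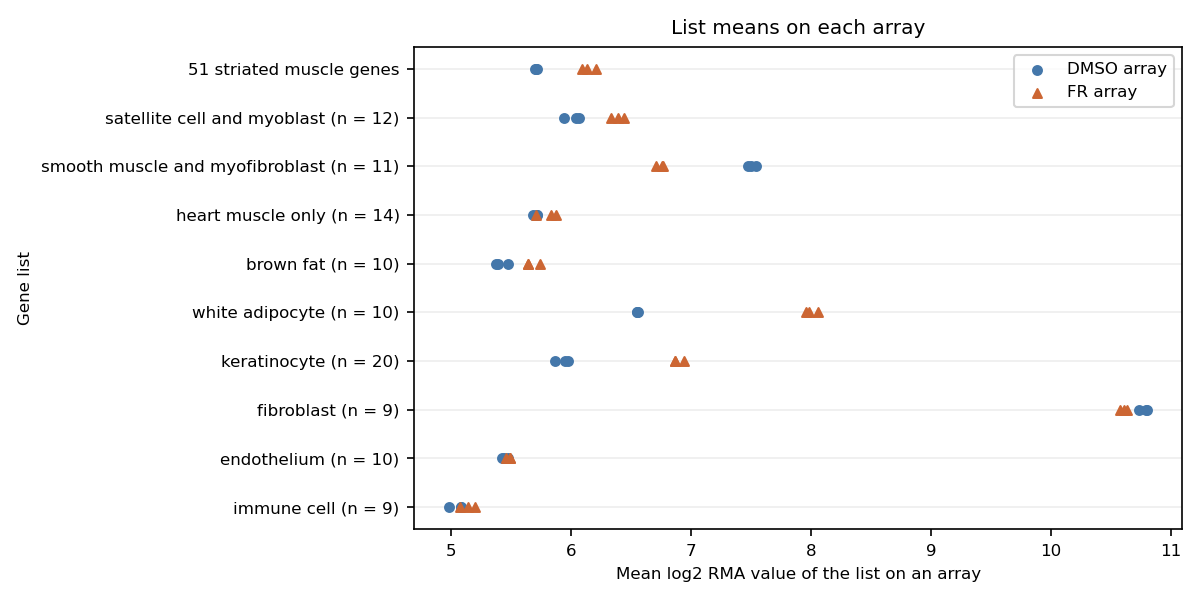
The mean log2 RMA value of the 51 striated muscle genes and of marker lists (rows) on each of the 3 DMSO arrays (circles) and 3 FR arrays (triangles). The striated muscle genes lie at 5.70 to 5.72 in DMSO and 6.09 to 6.20 in FR, and smooth muscle and myofibroblast genes lie lower in FR than in DMSO.

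Promoter windows were found for 38 of the 51 genes. The E-box CAGCTG, searched on both strands like every motif here, was present in 19 of them (50.0%), where 18.3% of 27025 genes with a window held it. Among genes that rose it was in 10 of 23, and among genes that did not pass in 8 of 14. The more general E-box CANNTG, which includes CAGCTG, was in 84.2% of the genes and 75.0% of all. A CArG box was in 5 (13.2%), where 1.81% of all held it. It was in 3 of the 23 genes that rose and in 2 of the 14 that did not pass. A MEF2 box (CTA, then 4 of A or T, then TAG) was in 2, Ttn and Klhl41, where 0.636% of all held it. The TEAD motif GGAATG was in 12 (31.6% against 16.6% of all), the core of the cyclic AMP response element, TGACG, in 5 (13.2% against 23.0%) and the Smad box GTCTG in 22 (57.9% against 53.2%). TGACG was in 1 of the 23 genes that rose and in 4 of the 14 that did not pass. A link of this motif to the changes was not tested. No match says only that these letters are not in the window.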

How the data were processed

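Total RNA was labelled as biotinylated cRNA, per the labels' protocols. For 35556 probe sets the deposited table gives a log2 value on each of 6 arrays. The authors made these log2 values by RMA in oligo, per the submitters' processing notes; the versions were not given in the sources used. RMA normalizes between arrays, and no further scaling was applied. Array numbers, not read depth, limit the precision; the median standard error of a change was 0.0962. By the platform annotation, 21789 probe sets had 1 symbol and were kept, 1621 had several symbols, and 12146 were unnamed here. Arrays were grouped by their titles. The test was that of limma 3.58.1 (R 4.3.3, lmFit then eBayes), two-sided with group as the only term and Benjamini-Hochberg adjustment. Simulated arrays of 19938 genes with 200 changed gave back 86% of changes of 0.5 and 100% of changes of 1, with 11 false calls among 197. The simulated noise was independent and normal, and the other genes had no shift. In the data 27.9% of genes passed and the median change of olfactory receptor genes was 0.14, so these rates may not hold there.

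The members, their roles, the lists and the motifs were chosen with earlier results of these data known. Values by array are given, in each role, for the up to 4 members that passed with the largest absolute change, and for Myh4, Ckm, Mb, Acta1, Ttn, Ryr1, Cacna1s and Myh7; Des and Trdn were added after their values were seen. The other muscle, fat, fibroblast and keratinocyte lists name up to 3 such genes each, and the pericyte, endothelial, melanocyte, Schwann and immune cell lists are given by counts alone. Named besides are the markers Pax7, Myod1, Myog, Myh6, Nppa, Ucp1, Acta2, Myh11, Krt5, Pparg, Col1a1 and Pdgfra. Smpx, Bag3, Myoz2, the tropomyosins, Chrng, Chrnb1, Chrna1, Chrne, Col3a1, Dcn, Cox6a2, Myf5, Vgll3 and Mef2a fall outside this rule and were picked with their values in view. The 95th percentile of olfactory receptor genes as a background level was also chosen after the data were seen. Pairs of genes of the same family were compared by an exact permutation test of within-array differences. Alternatives were other scalings, filters, probe set rules, variance models, a replicate block and leaving out each array.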

Additional observations from a re-analysis of the deposited data

How the results depend on the processing

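Over 18 alternatives the direction of 0 calls was reversed among the 51 genes. The count of genes that rose was 27, with 16 by ordinary variance (3364 of all genes passed, where 5559 did in the main test) and 6 against a log2 change of 0.5 (842 of all genes); the 6 were Actc1, Casq2, Myh3, Myl4, Mylpf and Tnnc2. By role, the test against 0.5 left 3 embryonic, 2 fast, 1 triad and 0 slow, shared or energy genes. Jph2 was not called in either, which left 0 genes that fell. Shared sarcomere genes that rose went from 9 to 5 with cyclic loess or with dim genes left out, which tested 31 members, and to 4 by ordinary variance, which also left 1 slow and 0 energy genes. The median change was 0.33, 0.21 with cyclic loess and 0.50 with dim genes left out. Without each array in turn, 23 to 25 rose, 0 to 1 fell, the median was 0.25 to 0.34, and 4033 to 5914 of all genes passed. Pygm, the energy gene that rose, left a count of 0 without each array other than FR replicate 1 and under the 3 scalings.

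The deviations of same-numbered arrays from their group means had r of -0.07, 0.05 and -0.03 across genes. Pairings of unlike numbers had r from -0.08 to 0.12. What r a shared animal, culture or batch would give is not known, so these values cannot tell whether same-numbered arrays share one. With the replicate block, 25 of the 51 genes rose and 4977 of all genes passed.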
